A study of Homo sapiens with 4 samples.

Results

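Of the 13 protein-coding genes carried by the mitochondrial genome, the 6 described here encode cytochrome b (MT-CYB), the catalytic core of cytochrome c oxidase (MT-CO1, MT-CO2 and MT-CO3) and membrane subunits of the ATP synthase (MT-ATP6 and MT-ATP8). They were taken by gene symbol from the gene list of the deposited matrices, where all 6 of 6 were found among 36601 genes, and the rule that picks them uses gene names and no measured value, although earlier results of these data were known when the group was set. Levels were read in BEAS-2B cells, an immortalized human bronchial epithelial line, after Cs-137 gamma irradiation with 10 mGy, 100 mGy or 1 Gy taken 30 min after irradiation, and in control cells. Each dose was profiled as 1 library of single cells with a droplet 3′ method, in which a barcode marks a cell and a unique molecular identifier (UMI) marks a captured mRNA molecule. With 1 library per dose there was no replicate, so that a dose effect and a difference between libraries cannot be told apart, and no test between doses was made. Intervals given below are exact 95% intervals on the counts and cover counting error only.

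The libraries held from 11111 to 21514 barcodes and from 211752280 to 285806026 UMIs, with a median of 12417 to 19771 UMIs per barcode, the highest in the control. Barcodes whose UMI count was below their library's median even when multiplied by 3, called low-UMI barcodes here, made up 19.6% of the control library and 25.4% to 41.4% of the irradiated libraries. Each pair of libraries shared 76 to 134 barcode sequences. Of 9 epithelial markers, KRT7, KRT8, KRT17 and KRT18 exceeded 10 UMIs per 1000000 UMIs of the library (CPM) in all 4 libraries, with a list sum of 1123 to 1244 CPM. The defining markers EPCAM and CDH1 stayed at or below 1.17 CPM, and the basal keratins KRT5 and KRT14 were near 0. Of 6 mesenchymal markers, 3 exceeded 10 CPM (VIM, FN1 and COL1A1), and their list summed to 4281 CPM in the control, 3186 CPM after 10 mGy, 3015 CPM after 100 mGy and 3845 CPM after 1 Gy, so it was lower in the same libraries as the summed level of the 6 genes. FN1 made up most of that difference at the low doses and VIM after 1 Gy, with FN1 at 1546, 623, 640 and 1466 CPM in the same order, while VIM was at 2702, 2535, 2346 and 2344 CPM. The part of that movement in the results below was not tested. No marker of ciliated, secretory or alveolar cells (0 of 6), blood cells (0 of 5) or endothelial cells (0 of 3) exceeded 10 CPM in every library, and CD3E was at 0 in all of them.

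The respiratory chain and the ATP synthase are built from subunits of both genomes. Cytochrome b is the subunit of complex III that is made in the mitochondrion, and MT-CO1 carries the centre at which complex IV reduces oxygen, while MT-CO2 carries the copper centre that receives the electrons. MT-ATP6 forms the proton path of complex V beside the rotating ring, while MT-ATP8 is a small accessory subunit. Mitochondrial genes are copied as long transcripts that are cut mostly at flanking tRNAs, although no tRNA lies between MT-ATP6 and MT-CO3. MT-ATP8 and MT-ATP6 stay together on a shared mRNA read in overlapping frames.

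In the GENCODE 29 annotation of GRCh38, matched by gene identifier, all 6 genes are single exons on the + strand of the mitochondrial chromosome. MT-CO1 (ENSG00000198804) lies at chrM:5904-7445, MT-CO2 (ENSG00000198712) at chrM:7586-8269, MT-ATP8 (ENSG00000228253) at chrM:8366-8572, MT-ATP6 (ENSG00000198899) at chrM:8527-9207, MT-CO3 (ENSG00000198938) at chrM:9207-9990 and MT-CYB (ENSG00000198727) at chrM:14747-15887. MT-ATP8 and MT-ATP6 overlap by 46 bases, and MT-ATP6 and MT-CO3 by 1 base. The whole coding sequence of MT-ATP8 (207 bases) and the first 90 bases of MT-ATP6 are shown because these genes share bases and an mRNA, with the shared bases in capitals.
MT-ATP8: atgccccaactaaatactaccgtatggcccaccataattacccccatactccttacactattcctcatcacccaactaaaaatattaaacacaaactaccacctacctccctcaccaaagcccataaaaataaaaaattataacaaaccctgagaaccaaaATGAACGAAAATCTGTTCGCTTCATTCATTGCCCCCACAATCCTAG
MT-ATP6: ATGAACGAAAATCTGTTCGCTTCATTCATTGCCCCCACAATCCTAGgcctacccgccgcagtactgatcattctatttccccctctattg
The 3′ ends are shown because a 3′ method counts molecules near them. In the last 30 bases of each gene, capitals mark the stop letters that the annotated gene holds.
MT-CO1 end: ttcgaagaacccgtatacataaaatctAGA
MT-CO2 end: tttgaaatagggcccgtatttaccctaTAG
MT-ATP8 end: tcgcttcattcattgcccccacaatccTAG
MT-ATP6 end: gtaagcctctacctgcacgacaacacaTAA
MT-CO3 end: tgtatgtctccatctattgatgagggtctT
MT-CYB end: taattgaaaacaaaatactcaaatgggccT
MT-CO3 and MT-CYB end on a bare T in the genome, and the mRNA's poly(A) tail completes the stop codon. MT-ATP8 has no 3′ end of its own on the shared mRNA, since its last 46 bases are the start of MT-ATP6. Reads from the shared bases cannot be assigned by sequence alone, and how the counting treated them is not given in the sources used here, so the MT-ATP8 level is uncertain for this reason.

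Summed over the 6 genes, the level was lower in the low-dose libraries and close to the control after 1 Gy. The sum was 45752 CPM in the control, 37016 CPM after 10 mGy, 36385 CPM after 100 mGy and 43736 CPM after 1 Gy, that is 4.58%, 3.70%, 3.64% and 4.37% of all UMIs in the same order. The ratio to the control was 0.809 after 10 mGy (interval 0.808 to 0.810), 0.795 after 100 mGy (0.795 to 0.796) and 0.956 after 1 Gy (0.955 to 0.957). Most genes were lower in the low-dose libraries: over the 8507 genes with a mean of at least 10 CPM, the median log2 ratio was -0.30 after 10 mGy, -0.38 after 100 mGy and 0.02 after 1 Gy. Relative to that median gene, the summed ratio was 0.999 after 10 mGy, 1.04 after 100 mGy and 0.945 after 1 Gy, so the direction after 100 mGy flipped.

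Read against a fold of 1.2, 4 of the 6 genes were lower after 10 mGy (MT-CO1, MT-CO3, MT-ATP6 and MT-ATP8), where 53.0% of all genes tested were lower by that fold. The same 4 genes were past it after 100 mGy, beside 58.9% of all genes. At 1 Gy it was 1 of 6 genes, MT-ATP6, beside 0.846% of all genes. None of the 6 was over 1.2-fold higher at any dose, while 15.4%, 14.0% and 1.28% of all genes were, in order of dose. Each of the 6 genes passed the 10 CPM floor. Past a fold of 1.5 there were 2 of 6 genes after 10 mGy (MT-ATP6 and MT-ATP8) and 3 of 6 after 100 mGy (these and MT-CO1), beside 25.8% and 33.9% of all genes, and 0 of 6 after 1 Gy, beside 0.0235%. With libraries scaled by median ratio size factors, which take out the broad shift, 2 of 6 were over 1.2-fold lower after 10 mGy and after 100 mGy, MT-ATP6 and MT-ATP8 in each, beside 27.3% and 29.0% of all genes. On that scale MT-CO2 and MT-CYB were over 1.2-fold higher after 100 mGy, beside 31.8% of all genes, and none of the 6 after 10 mGy, beside 30.6%. After 1 Gy MT-ATP6 was again the 1 of 6 that was lower, beside 1.59%, and none was higher, beside 0.658%. The share of all genes depended on the floor, and with 100 CPM in place of 10 CPM, which MT-ATP8 does not reach, 37.1%, 39.0% and 1.01% of genes were over 1.2-fold lower in order of dose. With a floor of 1 CPM it was 53.4%, 60.9% and 1.42%.

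**Figure D1:**
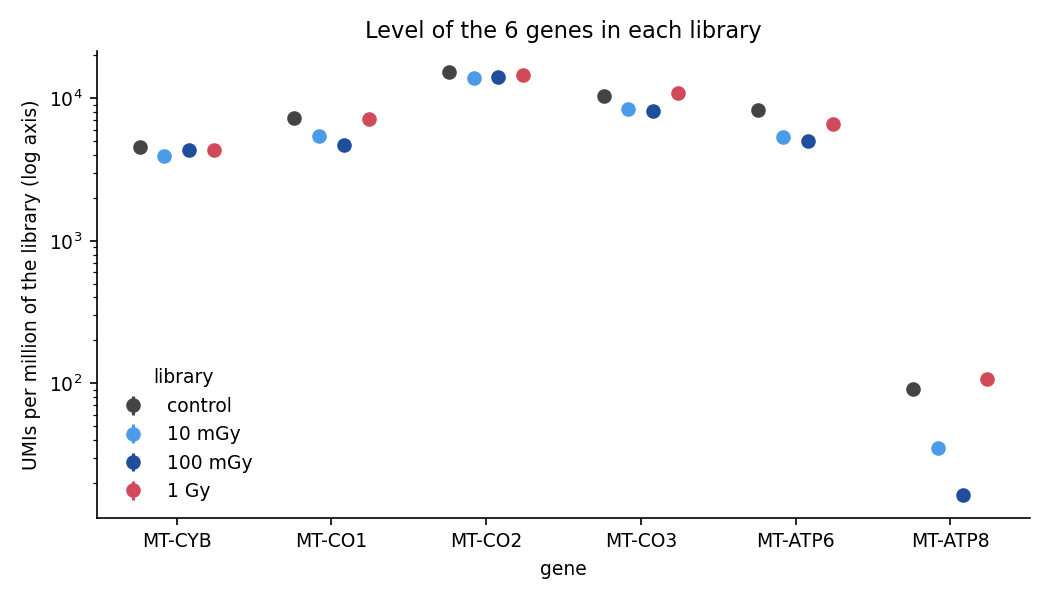
Level of each of the 6 genes in CPM (log axis) in the 4 libraries, 1 point per library, with counting intervals smaller than the points. MT-ATP8 spans 16.5 to 108 CPM, while MT-CYB stays between 3938 and 4539 CPM.

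On the CPM scale MT-CYB, the complex III member, varied least of the 6 between the highest and lowest library after MT-CO2. Its level was 4539 CPM in the control, 3938 CPM after 10 mGy, 4318 CPM after 100 mGy and 4344 CPM after 1 Gy. The control was highest and the 10 mGy library lowest, with the remaining libraries between them. The ratio to the control was 0.868 after 10 mGy, 0.951 after 100 mGy and 0.957 after 1 Gy on the CPM scale, but 1.07, 1.24 and 0.946 relative to the median gene, so at both low doses the direction depended on the scaling. Between the low doses MT-CYB was 1.10-fold higher after 100 mGy, above 91.1% of all genes in that comparison. Relative to the median gene, MT-CYB spanned a wider range over the libraries than each other member except MT-ATP8.

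On the CPM scale MT-CO2, which takes electrons from cytochrome c, differed least between libraries among the oxidase genes. Relative to the median gene MT-CO2 spanned the widest range of these genes and MT-CO3 the narrowest. MT-CO2 stood at 15280 CPM in the control, 13910 CPM after 10 mGy, 14192 CPM after 100 mGy and 14565 CPM after 1 Gy. The ratios to the control were 0.910, 0.929 and 0.953 in order of dose, and 1.12, 1.21 and 0.943 relative to the median gene, so MT-CO2 too flipped at the low doses with the scaling. MT-CO1, the largest catalytic subunit, was counted at 7297 CPM in the control, 5423 CPM after 10 mGy, 4688 CPM after 100 mGy and 7173 CPM after 1 Gy. Both low-dose libraries lay well below the control and the 1 Gy library. The ratios of MT-CO1 were 0.743, 0.642 and 0.983, and stayed below 1 relative to the median gene at 0.917, 0.838 and 0.972. MT-CO3, a structural core subunit without a metal centre, was counted at 10300 CPM in the control, 8366 CPM after 10 mGy, 8157 CPM after 100 mGy and 10975 CPM after 1 Gy. On the CPM scale it was the only oxidase gene with its highest level after 1 Gy, but with UMIs scaled per barcode and averaged its 1 Gy ratio was 0.990, and in low-UMI barcodes alone 0.789. Its ratios were 0.812, 0.792 and 1.07, and 1.00, 1.03 and 1.05 relative to the median gene, so the lower MT-CO3 level at the low doses was of the size seen for the median gene.

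The oxidase genes therefore did not keep a fixed proportion. For every 1000 UMIs of MT-CO2, the control held 478 UMIs of MT-CO1, the 10 mGy library 390, the 100 mGy library 330 and the 1 Gy library 492. Such ratios within a library do not depend on how libraries are scaled. MT-CO3 per 1000 UMIs of MT-CO2 was 674 in the control, 601 after 10 mGy, 575 after 100 mGy and 753 after 1 Gy, a narrower span in the low-dose libraries than for MT-CO1. MT-CYB per 1000 UMIs of MT-CO2 ranged only from 283 to 304 over the 4 libraries.

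MT-ATP6, the proton-path subunit of complex V, was lower than the control in each irradiated library. Its level was 8243 CPM in the control, 5345 CPM after 10 mGy, 5013 CPM after 100 mGy and 6572 CPM after 1 Gy. The control stood above every irradiated library. The ratios were 0.648, 0.608 and 0.797 in order of dose (interval after 1 Gy 0.795 to 0.799), and 0.80, 0.793 and 0.788 relative to the median gene. At 1 Gy, where few genes differed from the control, MT-ATP6 ranked 29 from the lowest ratio of 8507 genes. At 10 mGy and 100 mGy it ranked 1916 and 2033 from the lowest, inside the broad shift of those libraries. Set against its neighbour MT-CO3, which begins on the last base of MT-ATP6, there were 800 UMIs of MT-ATP6 per 1000 of MT-CO3 in the control, 639 after 10 mGy, 614 after 100 mGy and 599 after 1 Gy. On this within-library ratio the 3 irradiated libraries lay close to each other and apart from the control.

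MT-ATP8, the accessory subunit, had the widest range of the 6. It was counted at 91.5 CPM in the control (19461 UMIs), 35.0 CPM after 10 mGy (9991 UMIs), 16.5 CPM after 100 mGy (4038 UMIs) and 108 CPM after 1 Gy (22774 UMIs). The 100 mGy library was lowest, the 10 mGy library next, and the 1 Gy library above the control. The ratio was 0.382 after 10 mGy (interval 0.373 to 0.392), 0.181 after 100 mGy (0.175 to 0.187) and 1.18 after 1 Gy (1.15 to 1.2), and 0.472, 0.236 and 1.16 relative to the median gene. Among 8507 genes MT-ATP8 ranked 36 from the lowest after 10 mGy and 5 after 100 mGy, and it ranked 208 from the highest after 1 Gy. Between the low doses MT-ATP8 after 100 mGy was 0.472 of its 10 mGy level, rank 4 from the lowest, and it was the 1 of 6 genes over 1.2-fold lower in that comparison, beside 12.7% of all genes, and also past 1.5-fold, beside 0.858%. None of the 6 was over 1.2-fold higher there, beside 1.35% of all genes.

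Although MT-ATP8 and MT-ATP6 share an mRNA, their counts did not move in proportion. Per 1000 UMIs of MT-ATP6 there were 11.1 UMIs of MT-ATP8 in the control (interval 10.9 to 11.3), 6.54 after 10 mGy (6.41 to 6.67), 3.30 after 100 mGy (3.19 to 3.40) and 16.4 after 1 Gy (16.2 to 16.6). These intervals cover counting error only, and the spread between replicate libraries is not known. How the counting treated the 46 shared bases printed above is not known, and their part in this ratio was not tested. MT-ATP8 has no 3′ end of its own on the shared mRNA, and a 3′ method counts molecules near such ends. The MT-ATP8 count may therefore not give the level of that mRNA.

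**Figure D2:**
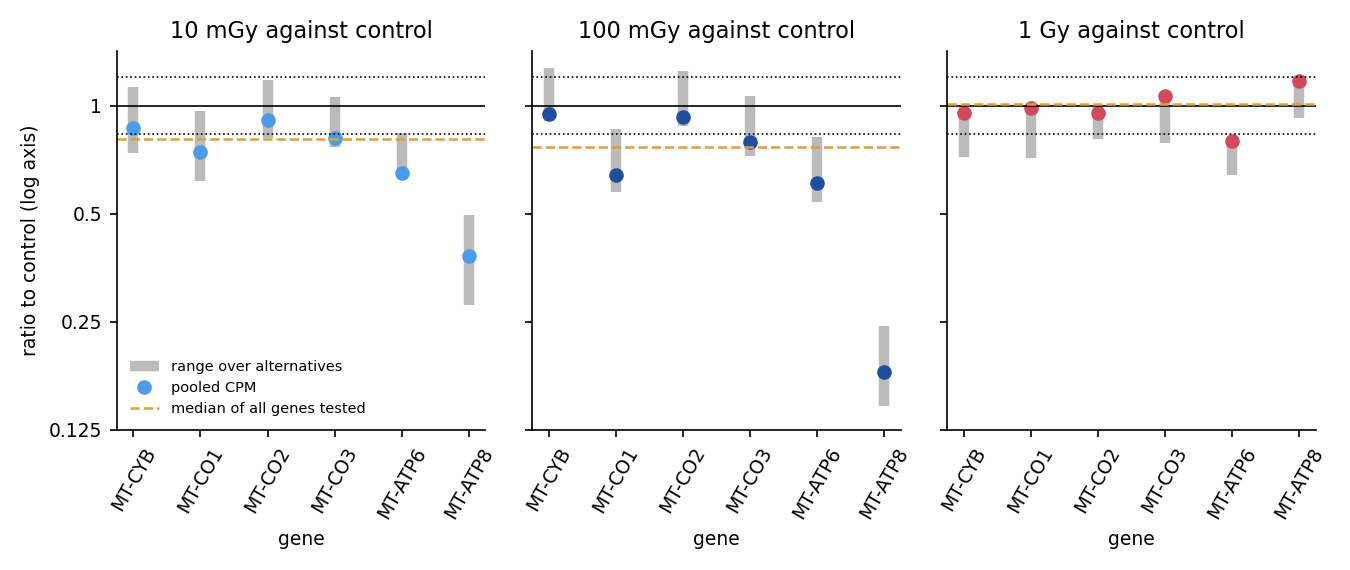
Ratio to the control (log axis) of each gene at each dose on the pooled CPM scale (points), with the range over 14 other scalings and choices of barcodes, unscaled UMIs left out (grey bars), the median of all genes tested (dashed line), equality (solid line) and a fold of 1.2 (dotted lines). MT-ATP8 lies below its partners after 10 mGy (0.382) and 100 mGy (0.181), and MT-ATP6 is the lowest of the 6 after 1 Gy (0.797).

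Per kilobase of gene, the order in the control was MT-CO2 (22340 CPM per kilobase), MT-CO3 (13138), MT-ATP6 (12105), MT-CO1 (4732), MT-CYB (3978) and MT-ATP8 (442). The same order held after 1 Gy, with 21294 for MT-CO2, 13999 for MT-CO3, 9650 for MT-ATP6, 4652 for MT-CO1, 3807 for MT-CYB and 520 for MT-ATP8. At 10 mGy MT-CO1 (3517) and MT-CYB (3451) lay close to each other. At 100 mGy MT-CYB (3784) stood above MT-CO1 (3040) on this scale only, since by CPM MT-CO1 stayed above MT-CYB in all 4 libraries. A 3′ method counts ends of molecules, so division by length is a rough guide and the order of these neighbours depends on it.

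Within the mitochondrially encoded mRNA, the 6 genes made up a larger share at the low doses. They took 77.4% of the UMIs of the 13 genes in the control, 81.3% after 10 mGy, 82.7% after 100 mGy and 75.7% after 1 Gy. The share of MT-CO2 was 25.8% in the control, 30.6% after 10 mGy, 32.2% after 100 mGy and 25.2% after 1 Gy. That of MT-CYB was 7.68%, 8.65%, 9.81% and 7.52% in the same order. Both thus took more of the pool in the low-dose libraries, whereas MT-CO1 went from 12.3% in the control to 11.9% after 10 mGy, 10.7% after 100 mGy and 12.4% after 1 Gy. MT-ATP6 took 13.9% in the control and 11.7%, 11.4% and 11.4% in the irradiated libraries in order of dose. MT-CO3 took 17.4%, 18.4%, 18.5% and 19.0% from the control to 1 Gy, and MT-ATP8 took 0.155%, 0.0768%, 0.0375% and 0.186%.

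**Figure D3:**
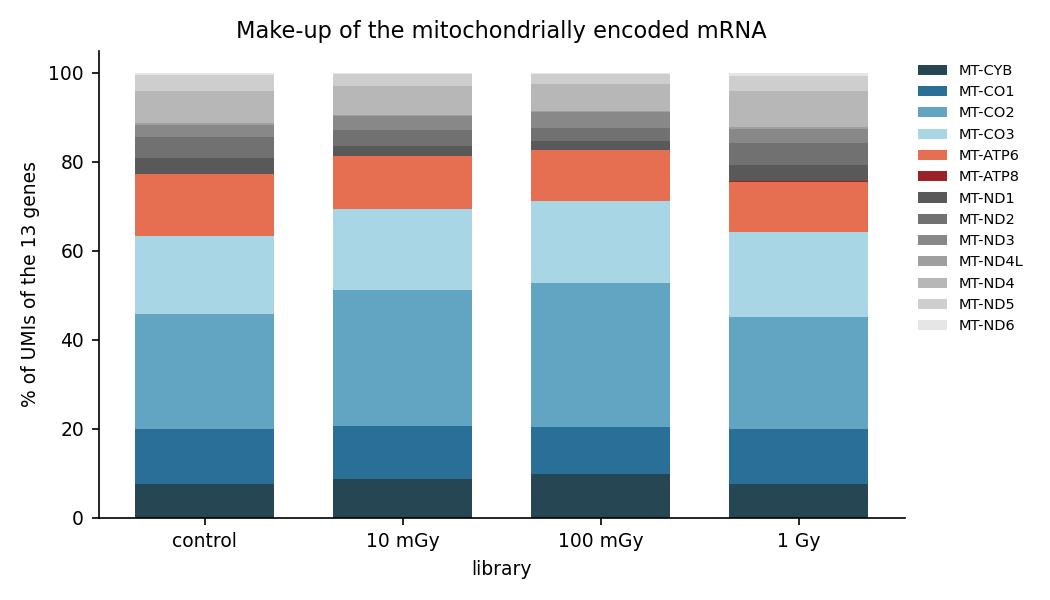
Stacked shares (% of UMIs) of the 13 mitochondrially encoded protein genes in each library, the 6 genes in colour and the complex I genes in grey. The coloured part covers 77.4% in the control, 81.3% after 10 mGy, 82.7% after 100 mGy and 75.7% after 1 Gy.

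The remaining 7 mitochondrially encoded genes are subunits of complex I, the NADH dehydrogenase. Their summed ratio to the control was 0.636 after 10 mGy, 0.571 after 100 mGy and 1.05 after 1 Gy, against 0.809, 0.795 and 0.956 for the 6 genes. Of the 7, 6 were over 1.2-fold lower at each low dose, beside 53.0% and 58.9% of all genes, and 2 were over 1.2-fold higher after 1 Gy, beside 1.28%. Under median ratio scaling 4 were lower after 10 mGy (27.3% of all genes), 5 were lower (29.0%) and 1 higher (31.8%) after 100 mGy, and 1 was higher after 1 Gy (0.658%). MT-ND1 stood at 0.498, 0.416 and 0.975 of the control in order of dose, MT-ND2 at 0.563, 0.463 and 1.01, and MT-ND5 at 0.616, 0.522 and 0.941. MT-ND4 was at 0.681, 0.616 and 1.08, and MT-ND4L at 0.80, 0.683 and 1.07. MT-ND3 was the complex I gene nearest to MT-CO2 and MT-CYB, at 0.909, 0.979 and 1.2. MT-ND6, the only protein gene on the other strand, was at 0.266, 0.163 and 1.39. Its order of libraries was that of MT-ATP8, and also that of MT-ND2, MT-ND4, MT-ND4L and MT-CO3.

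Nuclear subunits of the same complexes were mostly above the control at the low doses on the CPM scale. Their list medians were lower with unscaled UMIs, as was the median of all genes. Of 9 nuclear complex III genes tested, 6 were over 1.2-fold higher and 0 lower after 10 mGy as after 100 mGy, with a median log2 ratio of 0.62 and 0.71, against -0.30 and -0.38 for all genes. Of all genes tested 15.4% and 14.0% were over 1.2-fold higher and 53.0% and 58.9% lower at these doses. Of 16 complex IV genes, 12 passed the 10 CPM floor, of which 11 were higher after 10 mGy and 12 after 100 mGy, and 0 were lower, with medians of 0.84 and 0.98. Of 18 complex V genes, 16 were higher and 0 lower at each low dose, with medians of 0.64 and 0.70. Under median ratio scaling all 9, 12 and 18 tested genes of these lists were over 1.2-fold higher at each low dose, beside 30.6% and 31.8% of all genes. With unscaled UMIs per barcode, which keep the lower UMI counts of the irradiated libraries, the list medians after 10 mGy and 100 mGy came to 0.10 and 0.07 for complex III, 0.32 and 0.33 for complex IV, and 0.11 and 0.06 for complex V. The median of all genes on that scale was -0.83 and -1.03. At 1 Gy none of these nuclear genes passed the fold in either direction, where only 1.28% of all genes were higher and 0.846% lower. The list medians of complexes III, IV and V were then 0.06, -0.08 and 0.02. These 1 Gy medians depended on the setting. With unscaled UMIs they were -0.43, -0.56 and -0.47, beside -0.47 for all genes. In low-UMI barcodes alone they were 0.25, 0.27 and 0.31, beside -0.04 for all genes. The joined exons of these lists were short, with a median of 2151 bases for complex III, 1957 for complex IV and 2923 for complex V, against 5323 for all genes tested, and the part of length in the difference was not tested. The 6 mitochondrially encoded genes have a median length of 734 bases.

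Named members span these lists. In complex III, UQCRC1 and UQCRC2, the core proteins, were at 1.11 and 1.12 of the control after 10 mGy, while the small subunits UQCR10 and UQCRB were at 1.68 and 1.83. At 100 mGy UQCR10 was at 2.01 and UQCRB at 2.05 of the control, and MT-CYB, their mitochondrially encoded partner, at 0.951. In complex IV, COX8A and COX7A2L were at 1.15 and 1.32 after 10 mGy, and COX6C and COX5A at 1.97 and 2.0. The core of complex IV was at 0.743 for MT-CO1 and 0.910 for MT-CO2 in that library. In complex V, ATP5F1A and ATP5F1B, the catalytic head subunits, were at 1.02 and 1.06, whereas ATP5PO, a stalk subunit, and ATP5MD were at 1.81 and 1.87, beside 0.648 for MT-ATP6. On the CPM scale subunits of a complex thus spanned from below to above the control within a library. Under median ratio scaling MT-CYB was at 1.07 after 10 mGy and 1.24 after 100 mGy, with all 9 nuclear complex III genes also above the control. The subunits of highest and lowest ratio are named here by their rank after 10 mGy.

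Of 31 assembly factors of complexes III, IV and V, 30 passed the floor. Of these, 15 were over 1.2-fold higher and 5 lower after 10 mGy, 15 and 6 after 100 mGy, and 1 and 0 after 1 Gy. Their median log2 ratios were 0.26, 0.23 and 0.02 on the CPM scale. With unscaled UMIs per barcode these medians were -0.27, -0.41 and -0.47, beside -0.83, -1.03 and -0.47 for all genes. Of all genes 15.4%, 14.0% and 1.28% were higher and 53.0%, 58.9% and 0.846% lower in order of dose. SCO1 and COA7, which act in building complex IV, were at 0.660 and 0.661 of the control after 10 mGy, and FMC1 and PET100 at 1.84 and 2.10. Under median ratio scaling 20 of the 30 were higher and 2 lower after 10 mGy, beside 30.6% and 27.3% of all genes, and 21 and 0 after 100 mGy, beside 31.8% and 29.0%. Of 29 genes for synthesis, processing and stability of mitochondrial RNA, 24 passed the floor, of which 3 were higher and 12 lower after 10 mGy, 4 and 13 after 100 mGy, and 0 and 0 after 1 Gy. The counts of lower genes are near the 53.0% and 58.9% of all genes at the low doses. The list's median log2 ratio was -0.32 and -0.33 at the low doses, close to that of all genes, and under median ratio scaling -0.02 and 0.05, so the direction after 100 mGy flipped with the scaling. TWNK, the mitochondrial DNA helicase, was at 0.435, 0.468 and 1.02 in order of dose, and PNPT1, an RNA-degrading enzyme of mitochondria, at 0.590, 0.626 and 0.944. HSD17B10, a subunit of the mitochondrial RNase P, was at 1.37, 1.47 and 0.944, and SLIRP, which stabilizes mitochondrial mRNA with LRPPRC, at 1.45, 1.91 and 0.957. LRPPRC itself, named after its values were seen, was at 0.610, 0.529 and 1.04.

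**Figure D4:**
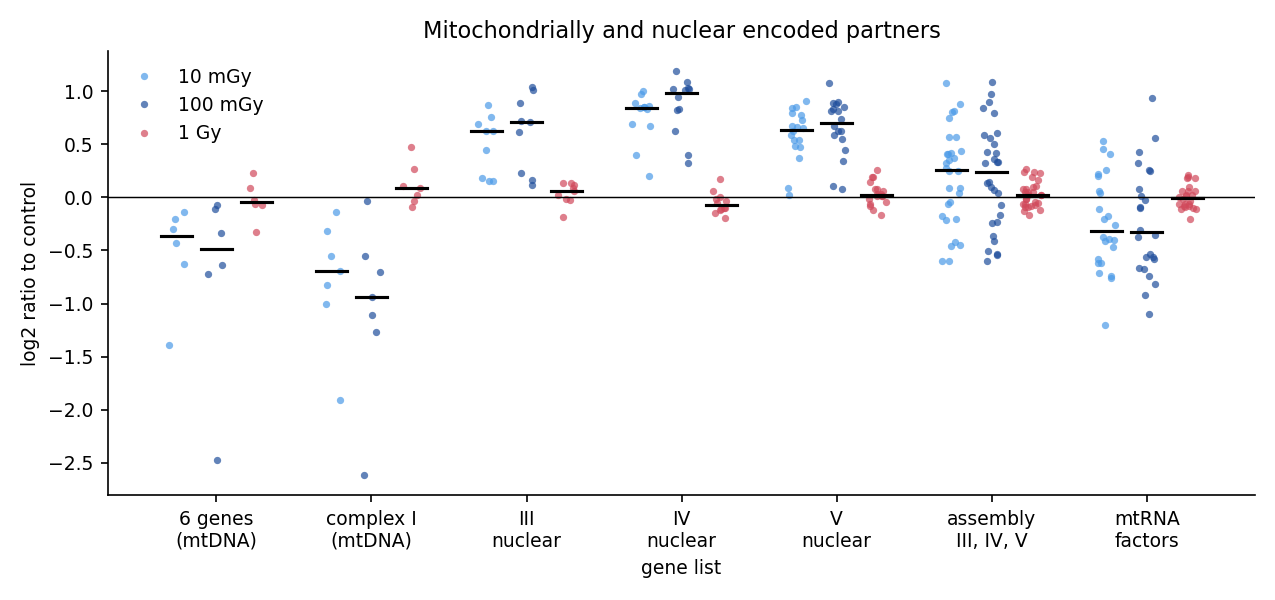
Log2 ratio to the control of the tested genes of each list after 10 mGy, 100 mGy and 1 Gy, 1 point per gene, with the list median as a black bar. Points of the nuclear complexes III, IV and V lie above 0 at the low doses (medians 0.62 to 0.98) and those of the mitochondrially encoded genes below it. After 1 Gy the lists lie around 0.

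The nuclear genes whose 3 log2 ratios lay nearest to those of the summed 6 genes were MASTL, AVEN, LIMCH1, KATNBL1 and MRM2, at Euclidean distances of 0.0242 to 0.0296 over 3 comparisons that share the control. MASTL, for example, was at 0.820, 0.789 and 0.949 of the control in order of dose. Within a distance of 0.1 lay 142 of 8494 nuclear genes, and within 0.2 lay 905.

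Low-UMI barcodes held a smaller share of the 6 genes. The median share of a barcode's UMIs was 2.27% in low-UMI barcodes and 4.63% in the other barcodes of the control, 2.26% and 3.85% after 10 mGy, 2.24% and 3.79% after 100 mGy, and 2.06% and 4.35% after 1 Gy. The medians of the low-UMI barcodes lay close together in the 4 libraries, and those of the other barcodes kept the control highest. The cut follows each library's own median, so low-UMI barcodes differed in depth between libraries. Their median was 1763.5 UMIs in the control, 1665 after 10 mGy, 851 after 100 mGy and 1247 after 1 Gy. Without the low-UMI barcodes the summed ratio was 0.817, 0.795 and 0.962 in order of dose, and with UMIs pooled over the low-UMI barcodes alone it was 0.729, 0.824 and 0.748. MT-ATP8 was the exception among the 6 in being counted at a higher CPM in the low-UMI barcodes in every library, by 1.55-fold in the control, 1.12-fold after 10 mGy, 1.77-fold after 100 mGy and 1.21-fold after 1 Gy.

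The summed level also depended on the UMI count of a barcode, and differently in each library. At 100 mGy the ratio to the control was 1.07 in barcodes of 1500 to 5000 UMIs, 0.864 in those of 5000 to 10000, 0.820 in those of 10000 to 20000, 0.739 in those of 20000 to 40000 and 0.519 in those of 40000 or more. At 10 mGy it was 0.751, 0.863, 0.855, 0.811 and 0.640 in the same ranges. At 1 Gy it stayed between 0.918 and 0.981. The range of 40000 or more held few barcodes, 446 in the control, 454 after 10 mGy, 156 after 100 mGy and 117 after 1 Gy. The share of the 6 genes among the 13 varied less over these ranges, between 75.6% and 78.3% in the control, 80.8% and 81.7% after 10 mGy, 82.4% and 83.2% after 100 mGy, and 74.9% and 76.5% after 1 Gy. MT-ATP6 after 1 Gy was at 0.767 to 0.815 of the control in every range, so its lower level was present at all UMI counts of 1500 or more.

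**Figure D5:**
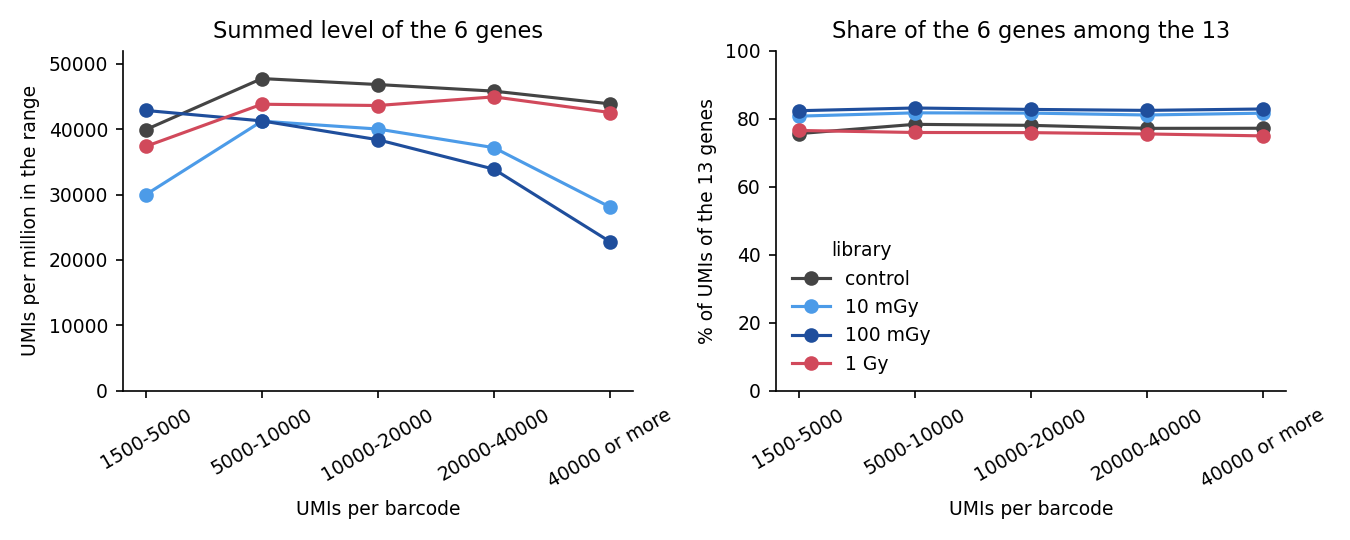
Summed level of the 6 genes (left, CPM) and their share of the UMIs of the 13 genes (right, %) by UMI count of the barcode, 1 line per library. The lines of the low doses fall away on the left at high UMI counts. The ratio after 100 mGy was 0.519 in barcodes of 40000 or more, which number 156 against 446 in the control. On the right the control line spans 75.6% to 78.3% and the other lines less.

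For the 5 abundant genes nearly every barcode had a UMI, between 95.7% and 99.9% of the barcodes in each library. MT-ATP8 was found in 70.6% of the control barcodes, 31.1% after 10 mGy, 17.2% after 100 mGy and 62.9% after 1 Gy. After each barcode was thinned to 1500 UMIs, which left out 932, 2048, 4576 and 2859 shallower barcodes in that order, it was found in 13.8% (interval 13.1% to 14.5%), 5.28% (4.97% to 5.60%), 2.72% (2.47% to 2.99%) and 15.6% (15.0% to 16.2%). The order of the libraries after thinning was that of the CPM. The level given by free RNA in the droplets was not measured.

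Cell-to-cell dispersion, the standard deviation over the mean of UMIs scaled to 10000 per barcode, was compared in barcodes of 10000 to 20000 UMIs. It was 26.2% for MT-CO1 in the control, 27.0% after 10 mGy, 28.7% after 100 mGy and 21.5% after 1 Gy. Over all barcodes, low-UMI barcodes included, MT-CO1 was at 69.9%, 56.0%, 57.6% and 53.3% in that order, so the low doses then lay below the control. In the narrower range the 5 abundant genes stayed between 24.6% and 31.2% in the control and low-dose libraries and between 21.5% and 24.2% after 1 Gy. MT-ATP8, with few UMIs per barcode, was at 89.4%, 138%, 204% and 86.5% from the control to 1 Gy, highest where its level was lowest, with counting noise not removed. Over the same barcodes the Pearson correlation between pairs of the 5 abundant genes was 0.604 to 0.811 in the control (3238 barcodes), 0.548 to 0.764 after 10 mGy (5733), 0.541 to 0.765 after 100 mGy (8455) and 0.450 to 0.657 after 1 Gy (7185). The barcodes of a library share its preparation, and scaling to a common total ties these values together. Pairs with MT-ATP8 gave -0.01 to 0.213 over the 4 libraries, at counts too sparse to read.

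Over 14 other scalings and choices of barcodes, with unscaled UMIs counted apart, MT-ATP8 was over 1.2-fold lower in 14 of 14 after 10 mGy (ratio 0.278 to 0.496) and in 14 of 14 after 100 mGy (0.146 to 0.243). MT-ATP6 was below the control in 14 of 14 at each dose, and over 1.2-fold lower in 13, 14 and 14 of them in order of dose. MT-CO1 was below the control in 14 of 14 at both low doses. MT-CO2, MT-CO3 and MT-CYB turned above the control in 2 or 3 of 14 at the low doses. At 1 Gy MT-CO3 was above the control in 12 of 14 and below it in 2. At 1 Gy MT-ATP8 was above the control in 13 of 14, and below it (0.924) in low-UMI barcodes alone. With unscaled UMIs per barcode all 6 genes were below the control at every dose, and MT-ATP8 was at 0.265, 0.116 and 0.838 in order of dose. The median log2 ratio of all genes on that scale was -0.83, -1.03 and -0.47.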

How the data were processed

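Single-cell RNA-seq of BEAS-2B cells comprised 4 libraries, 1 per dose including the unirradiated control, assigned by the sample labels. Matrices of raw UMI counts were deposited by the authors, with 36601 genes as rows and barcodes as columns. The file header names Cell Ranger 7.0.1, and the submitters' processing notes name Cell Ranger, STAR and GRCh37. Which annotation was used, and whether introns were counted, is not given in the sources used here. Positions and sequences came from GENCODE 29 (GRCh38), matched by gene identifier, and were not used to count.

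The members and gene lists were chosen with earlier results of these data known. UMIs of all deposited barcodes were summed per library and expressed per 1000000 UMIs of the library (CPM). All barcodes were used and doublets were kept, without a doublet caller. Ratios to the control were computed for 8507 genes with a mean of at least 10 CPM, and counted as lower or higher past a fold of 1.2. Intervals were exact Poisson or binomial intervals at 95%. Besides the 6 members and the 7 other mitochondrially encoded genes, the text names in each nuclear list the 2 highest and 2 lowest ratios at 10 mGy, and the 5 nuclear genes nearest in pattern to the summed members. Marker genes were named from a fixed list. Alternatives covered scaling, UMI and gene minimums, thinning, the fold and the CPM floor. Ratios were tested on simulated counts. Depth was 211752280 to 285806026 UMIs per library, so counting error was small and the missing replicates limit the precision. Calculations used pandas 2.3.3, scipy 1.17.1 and numpy 2.4.6 under Python 3.11.15, and plots matplotlib 3.10.9.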

Additional observations from a re-analysis of the deposited data

How the results depend on the processing

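With 1 library per dose, no spread between replicates could be set against any change of processing. A ratio of a member or of the summed members was taken as moved when it left the counting interval, which is narrow at this depth. Counts of genes, shares of genes and list medians were not judged by that interval. No paired analysis was possible because each dose had 1 library and no test was made. The summed ratio is given here at 10 mGy, 100 mGy and 1 Gy in order, beside 0.809, 0.795 and 0.956 as reported.

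It was 0.765, 0.802 and 0.894 for the mean of UMIs scaled to 10000 per barcode, and 0.561, 0.509 and 0.681 for unscaled UMIs per barcode. Median ratio size factors gave 0.997, 1.04 and 0.936, reversed at 100 mGy. A total without ribosomal protein and mitochondrially encoded genes gave 0.859 and 0.863 at the low doses. With barcodes kept from 200 genes on and up to 20% mitochondrial UMIs it was 0.811, 0.798 and 0.959. With at least 700 genes it was 0.798 at 100 mGy and 0.957 at 1 Gy. Without low-UMI barcodes it was 0.817 at 10 mGy and 0.962 at 1 Gy, and without barcodes over 3 times the median 0.823 and 0.808 at the low doses. Barcodes of 10000 to 20000 UMIs gave 0.855, 0.820 and 0.931, and those of 20000 to 40000 gave 0.811, 0.739 and 0.981. Thinning to 1500 UMIs gave 0.764, 0.834 and 0.949.

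Chosen after seeing the data were thinning to 5000 UMIs (0.834, 0.821 and 0.952), low-UMI barcodes alone (0.729, 0.824 and 0.748), leaving out barcodes found in more than 1 library, and a scale relative to all mitochondrially encoded UMIs (1.05, 1.07 and 0.979, reversed at both low doses). The count of genes over 1.2-fold lower became 2 under median ratio size factors at each low dose, and 1 at 10 mGy and 2 at 100 mGy on the mitochondrial scale. With unscaled UMIs it became 6 for each low dose and 5 after 1 Gy. In low-UMI barcodes alone it was 6, 3 and 5 in order of dose. All genes had a median log2 ratio of -0.83, -1.03 and -0.47 with unscaled UMIs, so the median gene was itself over 1.2-fold lower. That median was -0.32, -0.36 and -0.04 in low-UMI barcodes alone, and 0.07 and 0.04 at the low doses on the mitochondrial scale. The share of all genes past the fold is not given for these settings, so these counts are not set against it. Past a fold of 1.5 the count of the 6 genes was 2 at 10 mGy and 0 at 1 Gy. MT-CO3 was reversed to 1.00 at 10 mGy and 1.03 at 100 mGy under median ratio size factors, and to 1.05 and 1.06 on the mitochondrial scale. The median log2 ratio of the mitochondrial RNA list was reversed to 0.0579 at 10 mGy and 0.0947 at 100 mGy on the mitochondrial scale and to 0.0535 at 100 mGy under median ratio size factors. The cause of these changes was not tested.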
